A study of Homo sapiens with 4 samples.

Results

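The tripartite motif (TRIM) genes were examined in m6A peak lists of OE-19 cells. Members were the protein-coding genes of GENCODE version 44 on hg38 whose symbol is TRIM followed by digits and optional letters. This rule, which used no measured value, gave 73 genes of 20046 protein-coding genes.

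OE-19 is an established human cell line of adenocarcinoma of the esophagogastric junction. The series holds 4 samples of this line, namely 2 m6A IP samples, made with an anti-m6A antibody, and 2 input samples without antibody. The labels name no knockdown, drug or other treatment, and no separate cultures behind the replicate numbers. Each IP sample had its own peak list. For the input samples no list was analysed.

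Most TRIM proteins have an N-terminal RING finger, which transfers ubiquitin, then B-box zinc fingers and a coiled coil that pairs 2 subunits. The C-terminal domain differs between subfamilies and binds the substrate. A PRY-SPRY domain is the most frequent, and others carry NHL repeats, a PHD finger with a bromodomain, or a COS box with a fibronectin repeat. Many members act in the innate response to viruses. N6-methyladenosine (m6A) is written on mRNA by METTL3 and its partners, often at GGAC, and is known to lie near stop codons and in long internal exons. In meRIP-seq, RNA fragments are pulled down with the antibody, and a peak is a stretch with more reads than the local background. Its fold enrichment is the ratio over that background at the summit, the position of most reads.

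The lists held 24607 peaks in replicate 1 and 19318 in replicate 2. They hold no read counts, so the depth of the libraries and the RNA level of each gene are unknown. A gene without a peak may thus lack m6A or may lack RNA, and these cannot be told apart here. Of the epithelial genes, CDH1 and CDX2 carried a peak in both replicates and VIL1 in replicate 1, and EPCAM, KRT8, KRT18 and KRT19 carried none.

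Most of the strongest peaks lay in coding sequence, at the stop codon or in the 3' UTR, while those of TRIM69 and TRIM39 could be placed in no region. Their reference sequences (hg38, read on the strand of the gene) are given at or near the summit. Where the 50 nt on each side of the replicate 1 summit were coding sequence of 1 exon, the whole 101 nt are printed. Elsewhere 29 nt around the nearest GGAC are printed, so these hold GGAC by choice and need not hold the summit. The adenosine of that GGAC lay at -31 nt from the replicate 1 summit in TRIM21, 15 nt in TRIM62 and 45 nt in TRIM39. These 29 nt do not reach the summit in TRIM21, TRIM62 and TRIM39. Capitals mark GGAC, the m6A consensus core that was searched.
TRIM59, chr3:160438767-160438867, minus strand: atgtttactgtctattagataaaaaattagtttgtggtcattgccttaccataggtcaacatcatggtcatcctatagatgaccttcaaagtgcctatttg
TRIM15, chr6:30172119-30172219, plus strand: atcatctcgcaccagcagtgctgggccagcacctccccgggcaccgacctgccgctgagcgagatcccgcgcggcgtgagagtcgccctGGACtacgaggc
TRIM21, chr11:4385257-4385285, minus strand: atggctttctctGGACactgccactctcc
TRIM56, chr7:101087829-101087929, plus strand: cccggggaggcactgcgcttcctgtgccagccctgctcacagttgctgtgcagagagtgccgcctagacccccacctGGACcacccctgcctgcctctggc
TRIM7, chr5:181194627-181194655, minus strand: tcccagctcagaGGACagtctgggccaga
TRIM39, chr6:30326696-30326724, plus strand: ctcgggtcacctGGACgccagcatctcag
TRIM45, chr1:117118244-117118344, minus strand: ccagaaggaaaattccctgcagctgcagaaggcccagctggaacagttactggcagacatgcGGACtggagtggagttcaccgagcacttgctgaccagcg
TRIM32, chr9:116699006-116699106, plus strand: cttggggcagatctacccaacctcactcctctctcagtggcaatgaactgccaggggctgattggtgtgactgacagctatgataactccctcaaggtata
TRIM62, chr1:33147131-33147159, minus strand: cacaacctcctgGGACcactgccacctgc
TRIM41, chr5:181224442-181224542, plus strand: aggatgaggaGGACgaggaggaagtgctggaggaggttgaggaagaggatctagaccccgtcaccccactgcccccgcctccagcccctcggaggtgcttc

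By the geometric mean fold enrichment of both replicates, TRIM59 and TRIM69 had the strongest shared peaks. TRIM59, a membrane-anchored RING protein of the endoplasmic reticulum, had a single peak, enriched 14.1-fold in replicate 1 and 14.2-fold in replicate 2. Its summit lay in coding sequence of exon 3, the last of 3 exons, 367 nt after the start codon in replicate 1 and 425 nt in replicate 2. The printed window holds no GGAC, and the adenosine of the nearest GGAC lay 61 nt downstream of the replicate 1 summit. A read-through protein-coding gene on the same strand shares this exon, so the peak cannot be given to TRIM59 alone.

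TRIM69, a PRY-SPRY ubiquitin ligase, had 2 shared peaks. The stronger, with fold enrichments of 15.1 and 12.6, lay at chr15:44731389-44731952 in an exon of a transcript with no defined coding sequence, outside the coding transcripts with a stop codon. No GGAC lay within 50 nt of its summits, and no sequence is shown. The weaker lay in the 5' UTR of the coding transcript, at 6.54 in replicate 1 and 4.52 in replicate 2.

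TRIM15, a PRY-SPRY protein found at focal adhesions, had the highest fold enrichment of the family in a single replicate, 21.8, beside 7.57 in replicate 2. The summits of the 2 replicates lay 1 nt apart, in the last exon, at position -178 relative to the stop codon, that is, in the part of the transcript that encodes the PRY-SPRY domain. TRIM21, the cytosolic antibody receptor, had fold enrichments of 17.5 and 8.40 at a summit in the 3' UTR, 47 nt from where the stop codon begins. The 2 summits again lay 1 nt apart. For both genes the position was thus the same to the base or nearly so, while the fold enrichment in replicate 1 was the higher by a log2 ratio of 1.53 for TRIM15 and 1.06 for TRIM21.

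TRIM56, an interferon-induced ligase of cytosolic nucleic acid sensing, had 5 exonic peaks in each replicate, more than any other member in replicate 2, and 4 of them were shared. All lay in exon 3, which measures 10656 nt and holds the whole coding sequence. The strongest, with fold enrichments of 13.04 and 7.77, spanned 2667 nt in replicate 1, with the summit 567 nt after the start codon. The other 3 shared peaks lay in the 3' UTR, between 1858 and 3872 nt past the stop codon, with fold enrichments from 2.72 to 4.64. A broad coding peak and a row of weaker 3' UTR peaks made up the pattern of this gene.

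TRIM7, a PRY-SPRY protein that binds glycogenin, had fold enrichments of 15.7 and 6.41 in the 3' UTR, 526 nt past the stop codon in replicate 1, and the adenosine of a GGAC lay 1 nt from that summit. A second shared peak, at 9.74 and 3.08, lay in the 5' UTR of another coding transcript. TRIM62, a PRY-SPRY ligase, reached 11 and 6.36 at its stop codon, with the summit 19 nt past it in replicate 1. TRIM41, a PRY-SPRY ligase that acts on protein kinase C, had its strongest peak in the first exon, at 7.82 and 7.55, 493 and 520 nt after the start codon. The first 2 of these genes were much higher in replicate 1, whereas TRIM41 was near equal in both.

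TRIM39, a PRY-SPRY ligase that binds the apoptosis factor MOAP1, had fold enrichments of 14.7 and 6.41 in an exon of a coding transcript without an annotated stop codon. The antisense lncRNA HCG18 has an exon at the same place, and the lists carry no strand, so the 2 genes cannot be told apart there. The second shared peak of TRIM39, at 8.54 and 6.63, lay in the coding sequence of its last exon and overlapped no other gene.

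The strongest pairs of TRIM45 and TRIM32 were higher in replicate 2, unlike most pairs. TRIM45, the member with a filamin repeat, reached 6.67 in replicate 1 and 11.2 in replicate 2 in exon 2, an internal exon of 734 nt, with summits 3 nt apart. Its other shared peak, in the first exon, went the other way, at 9.01 and 4.37. TRIM32, an NHL ligase mutated in a limb-girdle muscular dystrophy, reached 7.41 and 9.45 in its second and last exon, with summits 1 nt apart and 1314 and 1313 nt after the start codon. No GGAC stood within 50 nt of the TRIM32 summit. The peak spanned 2051 nt in replicate 1 and its stretch shared with replicate 2, of 1951 nt, held 7 GGAC. So short a motif is likely to occur in a stretch of this length, so the count does not tie the motif to the peak.

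**Figure D1:**
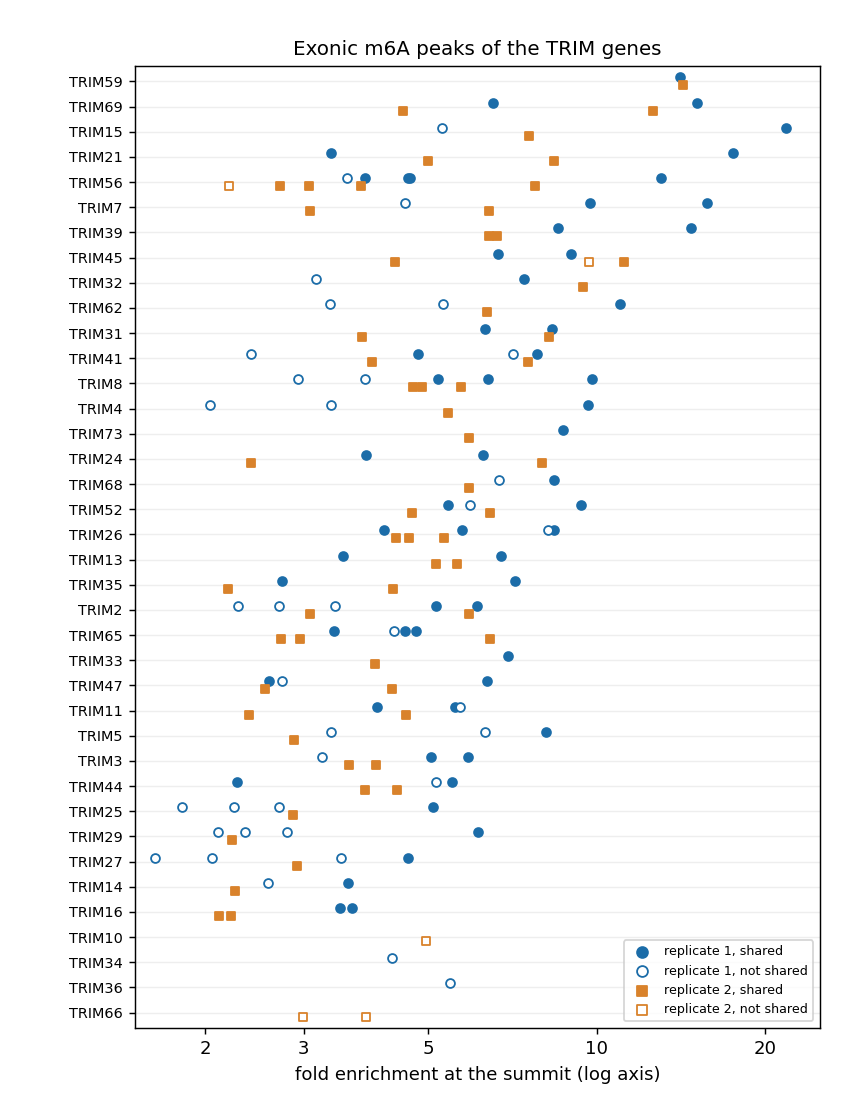
Fold enrichment (log axis) of each exonic peak of the 38 TRIM genes with a peak in either replicate, blue circles for replicate 1 and orange squares for replicate 2, filled where the peak overlaps one of the other replicate. Genes are ordered by the geometric mean of their best shared pair, from TRIM59 at 14.1 and 14.2 to TRIM16 at 3.66 and 2.12, and the 4 genes at the bottom have a peak in 1 replicate only.

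**Figure D2:**
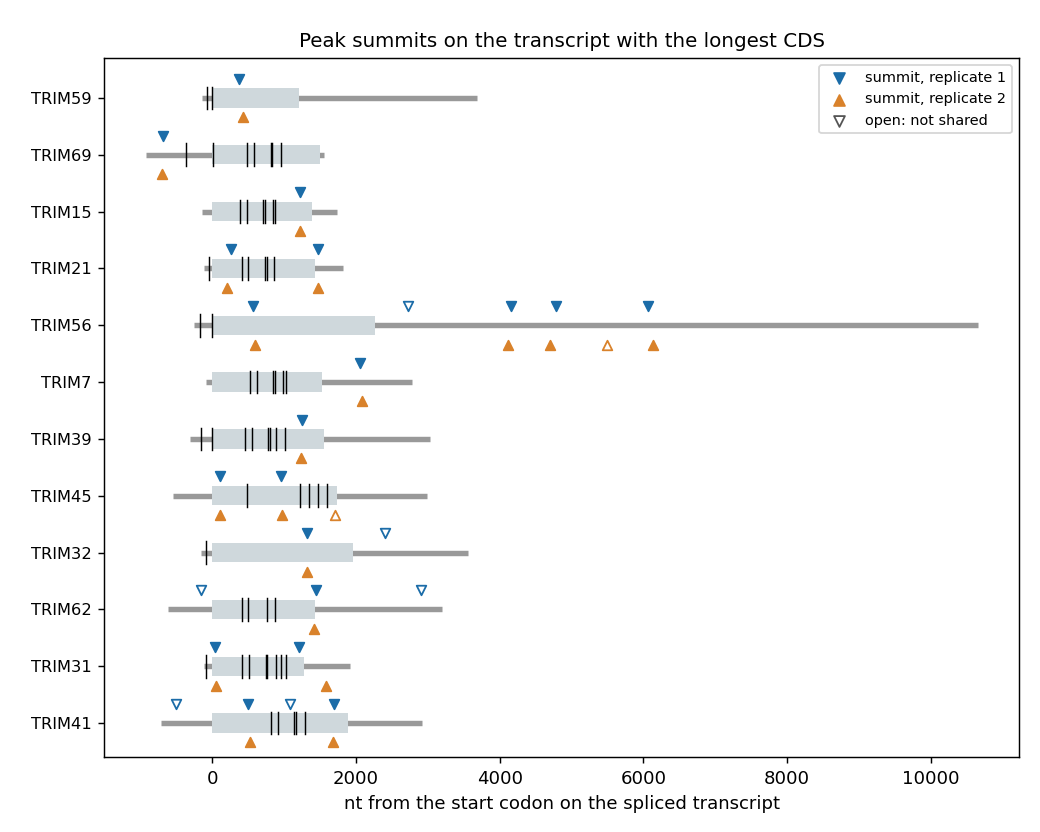
Spliced transcripts with the longest coding sequence of the 12 TRIM genes with the strongest shared peaks, drawn to scale from the start codon in nt, with coding sequence as boxes, exon borders as black ticks and summits as triangles, open where not shared. The summits of TRIM56 spread over a last exon of 10656 nt, and the strongest summits of TRIM69 and TRIM39 are not drawn since they lie outside these transcripts.

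In all, 36 of the 73 TRIM genes carried an exonic peak summit in replicate 1 (49.3%, Wilson 95% interval 38.2 to 60.5) against 42.4% of all protein-coding genes. In replicate 2 it was likewise 36 genes (49.3%) against 34.1%. Both replicates agreed on 34 genes (46.6%, 35.6 to 57.9), where 33.4% of all protein-coding genes had a peak in both, and 38 genes (52.1%) had a peak in either, against 43.1%. These intervals cover counting error only, and members in tandem share sequence, so they are not independent of each other.

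Longer transcripts offer more room for a peak, and the length of the members was therefore taken into account. The median exonic length was 4306 nt in the TRIM genes and 4416 nt in all protein-coding genes, so the family as a whole was not longer. Each member was then given the share of other protein-coding genes with a peak in its length bin, of 20 bins of equal number. These shares summed to 32.0 genes in replicate 1 (43.8%), 25.7 in replicate 2 (35.3%) and 25.2 for both (34.5%). The TRIM genes stood 5.54, 14.1 and 12.1 percentage points above these numbers. When the lists were limited to peaks at least 5-fold enriched, the differences were 11.04, 8.91 and 8.91 points. No test was made of them.

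Members with a peak in both replicates had a median exonic length of 6175 nt, and those without a peak 2576 nt. Among the 39 TRIM genes in the 10 shorter bins 12 had a peak in both (30.8%, 24.5% by length), and among the 34 in the 10 longer bins 22 did (64.7%, 45.9% by length). The distance to the other genes was thus larger among the long members, but length is not the only difference between these groups. The shorter bins hold related copies without a peak, such as TRIM43 and TRIM43B or TRIM49 and TRIM49B. For near-identical copies, no peak is not evidence of no m6A, as given below. In bins 9 and 10, 3 of 5 and 5 of 6 TRIM genes had a peak in both, against 33.3% and 33.9% of other genes.

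**Figure D3:**
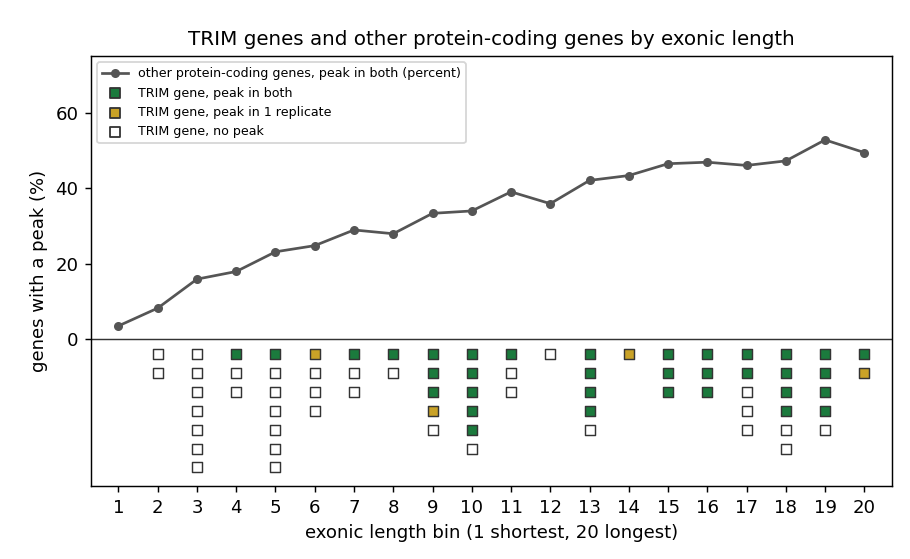
Percent of other protein-coding genes with a peak in both replicates (line, y axis) by bin of exonic length (x axis, 20 bins of equal number), with each of the 73 TRIM genes drawn as a square under its bin, green for a peak in both replicates, yellow for 1 replicate and white for none. Of the TRIM genes, 22 of 34 in bins 11 to 20 and 12 of 39 in bins 1 to 10 are green.

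Subfamilies differed in how many members carried a peak, although most are too small for more than a count. Of 42 PRY-SPRY genes, 19 had a peak in both replicates, where length alone gave 13. Of the 10 genes with no further domain, 7 did (3.79 by length), namely TRIM8, which binds the cytokine-signalling inhibitor SOCS1, TRIM29 and TRIM44, which lack the RING, TRIM31, TRIM52, TRIM56 and TRIM73. Both transmembrane members, TRIM13 and TRIM59, carried peaks in both lists (0.928 by length). Of the 4 NHL genes, TRIM2, TRIM3 and TRIM32 did (1.75 by length), and TRIM71, a regulator of stem cells, had none.

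Among the other PRY-SPRY genes with a shared peak, TRIM4, a ligase of RIG-I, reached 9.64 and 5.42, and TRIM35 7.15 and 4.33. TRIM26, which targets the transcription factor IRF3, had 3 shared peaks, the strongest pair at 8.38 and 4.62. TRIM47 had its strongest pair at 6.38 and 4.31, and TRIM11 at 5.58 and 4.57. The weakest best pairs of the family were those of TRIM14, an adaptor of mitochondrial antiviral signalling, at 3.60 and 2.26, and of TRIM16 at 3.66 and 2.12. Each of these pairs was thus higher in replicate 1. Of the members without a further domain, TRIM52 reached 9.38 and 4.68 at a place where an antisense lncRNA has an exon, TRIM29 6.14 and 2.23, and TRIM44 5.51 and 3.85. A second shared peak of TRIM52, at 5.42 and 6.44, lay in coding sequence of its first exon. At its replicate 1 summit no other gene has an exon. TRIM13, which sits in the endoplasmic reticulum, had its strongest pair in coding sequence at 6.76 and 5.17. Its other shared peak, in the 5' UTR at 3.52 and 5.63, was the stronger in replicate 2. The antisense lncRNA DLEU2 has an exon at that 5' UTR peak.

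Of the PHD and bromodomain genes, TRIM24 and TRIM33, nuclear cofactors of transcription, had shared peaks, where length gave 1.78 of 4. The stronger peak of TRIM24 lay in the 3' UTR at 6.26 and 7.99, and that of TRIM33 at the stop codon at 6.94 and 4.01. TRIM28, the corepressor of KRAB zinc finger proteins, had no peak. None of the 4 COS and fibronectin genes (TRIM9, TRIM36, TRIM46 and TRIM67) had a peak in both replicates, where 1.76 were given by length, nor did any of the 3 muscle RING finger genes TRIM54, TRIM55 and TRIM63 (0.784 by length) or TRIM23, TRIM37 and TRIM42. With 4 genes or fewer per class, these counts are a description only.

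Of the 13 members on a list of antiviral and innate immune TRIM proteins, 10 had a peak in both replicates (76.9%). Length gave 5.22, and 33.4% of all protein-coding genes had a peak in both. The list was drawn up from general knowledge, with earlier results of these data known. It leaves out TRIM4, named above as a ligase of RIG-I, and the count is a description only. TRIM5, which binds retroviral capsids, had its strongest peak at 8.13 in replicate 1 and 2.89 in replicate 2. For TRIM25, a ligase of the RNA sensor RIG-I, the values were 5.09 and 2.87. TRIM65, a ligase of MDA5, had 3 shared peaks, the strongest pair at 4.55 and 6.44. The list's other members with peaks were TRIM14, TRIM21, TRIM26, TRIM27, TRIM31, TRIM32 and TRIM56, and TRIM22, TRIM23 and TRIM38 had none.

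Of 20 genes of the sensing pathway in which these members act, 11 had a peak in both replicates, 4 in replicate 1 only and 5 in neither. The share with a peak in both was 55%, where all protein-coding genes had 33.4%, and length alone gave 7.67 of the 20. The list was chosen with earlier results of these data known. The adaptor MAVS had best fold enrichments of 8.09 and 8.02, and the TAK1 partner TAB1 9.20 and 10.97. RNF135, a RIG-I ligase, reached 11.5 and 5.87. IFIH1, IKBKG, TRAF2, TRAF3, TRAF6, MAP3K7, TAB2 and IRF3 also had peaks in both. RIGI, IKBKE, TAB3 and ISG15 had one in replicate 1, and DHX58, CGAS, STING1, TBK1 and IRF7 had none. Of 11 TRIM relatives under other symbols, 3 had a peak in both (3.69 by length). Among the 11, MID1, a COS-box ligase bound to microtubules, had best values of 24.6 and 16.6, above those of every gene the rule took in. PML, the scaffold of nuclear bodies, had 11.1 and 9.75, and MID2 had no peak.

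Many members lie side by side in the genome. TRIM7, TRIM41 and TRIM52 at the end of chromosome 5 (chr5:181193924-181261150) all had peaks in both replicates, as did TRIM47 and TRIM65 on chromosome 17 and TRIM21 and TRIM68 on chromosome 11. On chromosome 6 (chr6:30102897-30343729) TRIM15, TRIM26, TRIM31 and TRIM39 had peaks in both, TRIM10 in replicate 2 only, and TRIM40 in neither. The 5 genes TRIM49, TRIM49C, TRIM64, TRIM64B and TRIM77 (chr11:89710299-90042025), the 3 genes TRIM49B, TRIM51G and TRIM64C, the pair TRIM43 and TRIM43B, and TRIM60, TRIM61 and TRIM75 had none. Several of these are near-identical copies, and how reads that fit more than 1 copy were treated is not given in the sources used here, so no peak in them is not evidence of no m6A.

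Peaks in 1 replicate only were found in 4 genes. In replicate 1, TRIM34 had 1 peak at 4.304 and TRIM36 1 peak at 5.48. In replicate 2, TRIM10 had 1 peak at 4.96 and TRIM66 had 2, the stronger at 3.88. The remaining genes without an exonic peak in either list, beside those named above, were TRIM6, TRIM17, TRIM48, TRIM50, TRIM51, TRIM58, TRIM72 and TRIM74. TRIM73, which had a peak, is a near-identical copy of TRIM74, and its peak also lay in exons of a pseudogene and of lncRNAs, so its 8.69 and 5.92 are uncertain as to the gene.

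The TRIM genes held 97 exonic peaks in replicate 1 and 65 in replicate 2. Of these, 61.9% (51.9 to 70.9) in replicate 1 and 92.3% (83.2 to 96.7) in replicate 2 overlapped a peak of the other replicate by at least 1 bp, against 60.6% and 95.9% of all exonic protein-coding peaks. The median fold enrichment was 5.16 in replicate 1, where all peaks had 5.21, and 4.52 in replicate 2, where all had 4.72. The family was therefore close to all peaks in both reproducibility and strength. Fold enrichments of 10 or more were found in 8 TRIM peaks of replicate 1 (8.25%, against 12.6% of all) and in 3 of replicate 2 (4.62%, against 6.398%). In replicate 1 the 60 shared TRIM peaks had a median of 6.20 and the 37 others 3.35.

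Best overlaps gave 60 pairs in 34 genes, and 21 genes had 2 or more pairs. Replicate 1 was the higher in 49 of 60 pairs (81.7%, against 80.6% of all pairs), with a median log2 ratio of 0.54, where all pairs had 0.44. The ratio ran from -0.95 in TRIM44 to 1.66 in TRIM7. Fold enrichments of the 2 replicates were related over the pairs (Pearson 0.65, Spearman 0.65, n = 60), where all 10853 pairs gave 0.70 and 0.69. The pairs share libraries and genes and no test was made. Summits of a pair lay a median of 26 nt apart, the same as over all pairs, and 46 pairs (76.7%, against 69.6%) lay within 50 nt.

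Along the transcript, TRIM summits had a higher share in coding sequence and a lower share around the stop codon than all summits, within counting error. The transcript with the longest coding sequence held 84 of the 97 summits of replicate 1 and 57 of the 65 of replicate 2. The window of 200 nt on either side of the stop codon held 17.9% (11.1 to 27.4) and 21.1% (12.5 to 33.3) of them, against 24.5% and 27.1% of all protein-coding summits. This window makes up 11.01% and 10.6% of these transcripts, so its density was above the mean of the transcript by a ratio of 1.62 and 1.99, against 2.17 and 2.53 over all genes. The intervals of the TRIM shares include the shares over all genes, as do those of the coding share (45.3 to 66.1 and 43.3 to 68.2).

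The rest of the coding sequence held 56.0% and 56.1% of TRIM summits, where all genes had 48.5% and 47.4% and where length gave 41.1% and 40.1%. The rest of the 3' UTR held 16.7% and 15.8%, less than its 37.3% and 38.7% of length, as over all genes (18.1% and 19.8% of summits). The 5' UTR held 9.52% and 7.02%, against 8.88% and 5.71% over all genes. Per length its ratio was 0.90 and 0.66, against 1.27 and 0.81 over all genes. The coding share was thus the largest in the family, and the 5' UTR share was near that of all genes. Summits in the 5' UTR of other coding transcripts, as in TRIM2 and TRIM7, are not in these shares. The strongest 5' UTR peak on the transcripts used was that of TRIM8, at 9.79 and 5.73. TRIM8-DT, a divergent lncRNA on the other strand, overlaps that place.

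Outside the last exon, most TRIM summits lay in first exons. The last exon held 47.6% and 56.1% of TRIM summits, near the 48.3% and 56.5% of all genes. First exons held 27.4% (18.99 to 37.8) and 22.8% (13.8 to 35.2), against 14.1% and 9.15% over all genes. They make up 17.4% and 15.6% of the TRIM transcripts but 8.90% and 8.65% of all transcripts. Per length the ratio was therefore 1.57 in TRIM and 1.58 in all genes in replicate 1 and 1.46 and 1.06 in replicate 2. Per length, the family was thus close to all genes in replicate 1 and above them in replicate 2. Internal exons over 400 nt held 11.9% and 17.5%, below the 18.2% and 23.7% of all genes. They make up 5.78% and 7.34% of the TRIM length and 10.7% and 11.8% of all, a ratio of 2.06 and 2.39, where all genes had 1.71 and 2.01. Internal exons of up to 400 nt held 13.1% in replicate 1, more summits than the long internal exons (11 against 10), but 3.51% in replicate 2, on 17.6% and 17.5% of the length. Over all genes this class held 17.3% and 7.89%.

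**Figure D4:**
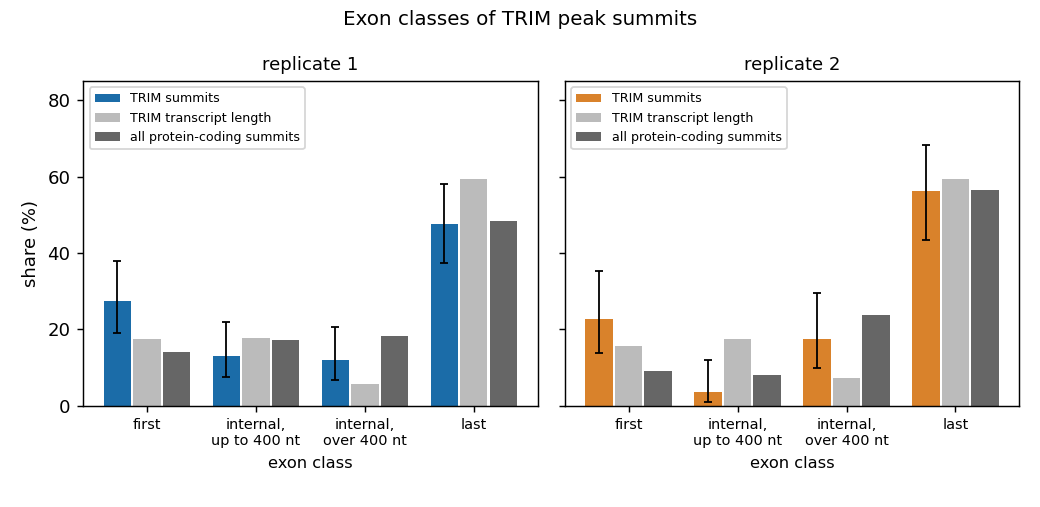
Share (%) of summits by exon class for the TRIM genes (coloured bars, with Wilson 95% intervals of counting error) and for all protein-coding genes (dark grey), beside the share of TRIM transcript length (light grey), in replicate 1 (left) and replicate 2 (right). TRIM first exons stand at 27.4% and 22.8% against 14.1% and 9.15% in all genes, and internal exons over 400 nt at 11.9% and 17.5% against 18.2% and 23.7%. Of the TRIM length, these classes make up 17.4% and 15.6%, and 5.78% and 7.34%.

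The exons of TRIM genes have set lengths. Of 440 internal exons of the 73 genes, 53 measured 96 nt, 40 measured 23 nt and 35 measured 231 nt, that is 12.1%, 9.09% and 7.95% against 1.05%, 0.0578% and 0.154% of all internal exons. In PRY-SPRY members the exon of 231 nt encodes much of the coiled coil. In most of these members the long exon that opens the coding sequence encodes the RING and the B-box. This does not hold for every TRIM gene, since that exon has only 3 coding nt in TRIM2 and TRIM13. This allowed peaks to be counted exon by exon in the 34 genes with a peak in both replicates, a choice that conditions on the presence of peaks, so the counts were set beside the same exons of all genes with a peak in both.

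Of 12 internal exons over 400 nt, 9 held a summit in both replicates, where 75.8% of such exons in all genes did. These 9 lay in TRIM2, TRIM3, TRIM5, TRIM16, TRIM21, TRIM26, TRIM31, TRIM45 and TRIM68, and all 9 peaks were shared. The 3 without were in TRIM39, TRIM69 and TRIM73. First exons held a summit in both in 11 of 34, against 13.5%, and last exons in 25 of 34, against 74.7%. Of these 3 classes the first exons were the one in which the family stood furthest from all genes, and they take a larger part of TRIM transcripts, as given above.

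Of the 14 exons of 231 nt, 5 held a summit in replicate 1 and 0 in replicate 2. Of all 26 internal TRIM exons of 200 to 260 nt, 7 did in replicate 1 (26.9%) and 0 in replicate 2. Over all genes 10.2% and 3.36% of internal exons of 200 to 260 nt did. In the exons of 231 nt the fold enrichments in replicate 1 were 8.17 in TRIM26, 3.36 in TRIM5, 2.60 in TRIM47, 2.42 in TRIM41 and 2.06 in TRIM27. Only the peak of TRIM47 overlapped one of replicate 2. At the TRIM5 exon another protein-coding gene on the same strand also has an exon. With 14 exons, a count of 0 allows up to 3 by counting error. All 180 internal exons of up to 400 nt together held a summit in 11 cases in replicate 1, against 4.29% over all genes, and in 1 in replicate 2, against 1.42%.

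The exon with the start codon, in which most members encode the RING, held 41.7% (31.7 to 52.4) of TRIM summits in replicate 1 and 45.6% (33.4 to 58.4) in replicate 2. Over all genes the start codon exon held 22.1% and 21.3%. It makes up 29.1% and 30.6% of these TRIM transcripts but 15.9% and 17.5% of all transcripts. Per length the ratio was 1.43 in TRIM and 1.40 in all genes in replicate 1, and 1.49 and 1.22 in replicate 2. Among shared peaks it was 1.473 in TRIM and 1.216 in all genes in replicate 1, and 1.508 and 1.215 in replicate 2. A summit was counted wherever it lay in this exon, so the share is not one of the RING part. In TRIM32, TRIM56 and TRIM59 the exon is also the last and holds the whole coding sequence and the 3' UTR. In TRIM8 the stronger summits lay in the 5' UTR, at -1550 and -1530 nt from the start codon. In 19 members the start codon exon held a summit in both replicates, in 7 in replicate 1 only and in 1 in replicate 2 only. GGAC stood in its coding part at a median of 5.26 per kb in the 19 and 2.43 per kb in the 46 members with no summit there, a description that does not account for RNA level. Single members ranged from 2.35 to 14.76 per kb in the 19 and from 0 to 15.87 in the 46. The 46 include coding parts too short for GGAC, of 3 nt in TRIM2 and TRIM13. They also count related copies separately, such as TRIM49, TRIM49B and TRIM49C. The medians are therefore not a like comparison.

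Among these, TRIM5, TRIM31, TRIM34 and TRIM68 had the start codon in exon 2, of 478 to 500 nt, and were chosen for display after their summit positions were seen. In replicate 1 the summit lay 44 nt after the start codon in TRIM31, 64 nt in TRIM5, 68 nt in TRIM34 and 88 nt in TRIM68. In replicate 2 it lay at 58 nt in TRIM31, 83 nt in TRIM5 and 103 nt in TRIM68. The fold enrichments were 8.32 and 8.21 in TRIM31, 8.38 and 5.92 in TRIM68, 8.13 and 2.89 in TRIM5 and 4.304, in replicate 1 only, in TRIM34. All 7 summits lay between 44 and 103 nt after the start codon, but the genes were chosen on these positions. TRIM22, with its start codon in exon 2, of 489 nt, had no peak. TRIM16, with the start codon in the long exon 7, had its summits at 62 and 56 nt. TRIM21, also with its start codon in exon 2, of 457 nt, had its summits farther in, at 262 and 211 nt, and TRIM26, with the start codon in the long exon 4, at 149 and 300 nt. The exon of TRIM34 also belongs to the read-through gene TRIM6-TRIM34. The first 150 coding bases of the 4 genes are printed for comparison, with GGAC in capitals; TRIM34 has none in this stretch and the others 1 each.
TRIM31, chr6:30112656-30112805, minus strand: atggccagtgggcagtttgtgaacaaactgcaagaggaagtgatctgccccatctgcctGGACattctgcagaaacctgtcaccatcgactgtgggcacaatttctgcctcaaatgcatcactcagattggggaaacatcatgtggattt
TRIM5, chr11:5680028-5680177, minus strand: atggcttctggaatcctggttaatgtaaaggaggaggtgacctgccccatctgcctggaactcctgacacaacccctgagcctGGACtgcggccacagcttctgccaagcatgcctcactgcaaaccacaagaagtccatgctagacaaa
TRIM34, chr11:5632332-5632481, plus strand: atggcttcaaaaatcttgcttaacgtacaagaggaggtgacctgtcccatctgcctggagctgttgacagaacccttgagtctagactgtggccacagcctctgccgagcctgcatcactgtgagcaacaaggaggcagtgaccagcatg
TRIM68, chr11:4605355-4605504, minus strand: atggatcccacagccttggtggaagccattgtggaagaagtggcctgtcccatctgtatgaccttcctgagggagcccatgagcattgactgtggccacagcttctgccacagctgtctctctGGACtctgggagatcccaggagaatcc

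TRIM2 and TRIM3, closely related NHL ligases of neurons, both had a shared peak in a long internal exon that does not hold the start codon. It was exon 7 of 724 nt in TRIM2, with fold enrichments of 6.13 and 3.08, and exon 6 of 733 nt in TRIM3, at 5.06 and 4.04. In replicate 1 the summits lay 449 nt and 362 nt from the start of the exon, and in both genes the adenosine of a GGAC stood at position -6 from the summit. Another protein-coding gene on the same strand has an exon at the TRIM2 peak, so it cannot be given to TRIM2 alone, as is the case for the long exon of TRIM16. The place was less steady in TRIM2, whose summits lay 175 nt apart, than in TRIM3, at 35 nt. Each gene had a second shared peak at its stop codon, at 5.17 and 5.91 in TRIM2 and 5.90 and 3.62 in TRIM3. The 101 nt around the replicate 1 summit of the long exon are given, with GGAC in capitals.
TRIM2, chr4:153295711-153295811, plus strand: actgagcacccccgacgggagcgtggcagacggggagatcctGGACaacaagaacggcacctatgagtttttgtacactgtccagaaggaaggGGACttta
TRIM3, chr11:6456618-6456718, minus strand: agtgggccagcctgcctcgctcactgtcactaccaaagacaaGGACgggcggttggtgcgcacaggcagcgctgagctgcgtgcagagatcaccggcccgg

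Over the family, GGAC on the strand of the gene was found within 50 nt of 52.6% (42.7 to 62.2) of TRIM summits in replicate 1 and 53.8% (41.8 to 65.4) in replicate 2. The same windows around all exonic protein-coding summits held it in 49.8% and 51.7%. Its reverse complement GTCC stood in 33.0% and 27.7% of TRIM windows, against 31.5% and 29.5% of all. Among shared peaks GGAC was found at 58.3% of TRIM summits in replicate 1 and 53.3% in replicate 2, against 52.5% and 52.2% of all. TRIM windows were thus like those of other genes in both the motif and its reverse complement. A match is a description of the letters and not of a methylated base.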

How the data were processed

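meRIP-seq of OE-19 cells was analysed from 2 m6A IP samples, and 2 input samples had no peak list here. According to the study's methods, reads were mapped to hg38 with TopHat2 and peaks called with MACS2 at default settings, whereas the submitters' processing notes name fastp, HISAT2 and MACS2. Releases are not given in the sources used here, nor is whether the input served as control. The labels describe cells fixed with UV and lysed, whereas the methods describe extracted RNA treated with DNase and fragmented. Per peak, the authors deposited a fold enrichment, the ratio of summit signal to the caller's local background. Deposited beside it were −log10 p and −log10 q, with the highest q at 0.0491 and 0.0497, and a score, which was not used. The summit was taken as peak start plus the deposited offset. Since the background is local, fold enrichment is not an m6A level. The lists give no strand, although the labels name a directional kit.

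Genes, exons and transcripts came from GENCODE version 44. A summit in an exon was counted for each protein-coding gene with an exon there, and contigs other than the 24 chromosomes were not placed. Exonic length was the merged length of all exons of a gene. Regions and exon numbers refer to the transcript with the longest coding sequence, and positions past the stop codon count from its first base. Peaks were shared where they overlapped by at least 1 bp, and pairs were best overlaps in both directions. GGAC was searched within 50 nt of the summit. Intervals are Wilson 95% intervals (scipy 1.17.1) and cover counting error only. A single group of 2 libraries allows no test between conditions, and none was made. Every TRIM gene with a peak was named, and the 12 genes with the highest geometric mean fold enrichment of a shared pair were described in full. Sequences were read from the hg38 genome (pysam 0.24.0). The code was tested on simulated data. Members, subfamilies and gene lists were chosen with earlier results of these data known. Alternatives were other thresholds, windows, overlaps, transcripts and length bins.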

Additional observations from a re-analysis of the deposited data

Results flagged for a closer look

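Beside the exonic peaks, 9 peak summits in replicate 1 and 5 in replicate 2 lay within TRIM genes but in no annotated exon. They are given because the comparisons used exonic summits only. They were 8.49% (4.53 to 15.4) and 7.14% (3.09 to 15.7) of the summits in TRIM genes, below the 12.2% and 19.2% over all protein-coding genes. The interval includes the share over all genes in replicate 1. In replicate 2, on 5 summits, it lies below that share. The 9 lay in 8 genes, and 5 of them overlapped a peak of the other replicate, as did all 5 of replicate 2. The shared ones were in TRIM14 (4.04 and 2.83), TRIM15 (7.90 and 4.63), TRIM23 (3.15 and 5.16), TRIM66 (7.52 and 5.43) and TRIM73 (7.55 and 6.16), as fold enrichment in replicate 1 and replicate 2. Those of replicate 1 alone were in TRIM25 (4.29), TRIM26 (10.2) and TRIM56 (5.31 and 4.66). TRIM23 had no exonic peak and TRIM66 none in replicate 1. Whether these reads come from unspliced RNA, from exons that are not annotated or from the other strand was not tested.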

How the results depend on the processing

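Of 242 values recomputed under other settings for 29 results, 221 kept within the spread or count limit of the reported value and 21 moved, and none changed direction. These limits were wide for the difference from the length-standardised share. With fold enrichment of 5 or more it went from 5.54 to 11.04 points in replicate 1 and from 14.05 to 8.91 in replicate 2. Both counted as kept, although the replicate with the larger difference changed. With fold enrichment of 5 or more, 22 TRIM genes had a peak in replicate 2 and 21 in both, the shared share in replicate 1 was 80.4%, the median fold enrichments 6.76 and 6.44, the log2 ratio 0.37, the rest of the 3' UTR in replicate 1 9.52%, and GGAC 62.7% and 72.0%. With q of 1e-05 or less, shared shares were 75.7% and 98.2% and the median in replicate 1 5.91. In replicate 2, the shared share was 81.5% with overlap of 50% of both peaks and 83.1% with summits within 100 bp. A stop codon window of 100 nt held 9.52% and 12.3%, and one of 400 nt held 36.8% in replicate 2. GGAC stood within 25 nt of 25.8% and 29.2% of summits, and within 100 nt of 75.3% and 76.9%. Windows and thresholds change these values by their construction. Start codon exon shares were added after seeing the data. No paired analysis was possible because no input peak list was analysed. Without 1 replicate, no value could be given for sharing, pairs, regions, exons or motifs, each of which is given per replicate or needs both. The lists hold no read counts, so depth limits could not be given.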
